A study of Mus musculus with 20 samples.

Results

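The EphA receptors and ephrin-A ligands were followed through 10 genes, chosen by name with earlier results of these data known. The genes were the receptors Epha3, Epha4, Epha5, Epha6, Epha7 and Epha8 and the ligands Efna1, Efna2, Efna3 and Efna5. They are 10 of the 32245 gene symbols in the count table, all of them had a row, and all 10 passed the filter on low counts that left 15373 genes for testing. RNA bound to HA-tagged ribosomes was isolated from hippocampi of Rbp4-Cre:RiboTag mice and sequenced. All libraries carried that genotype, so the ages are compared with each other and not with another genotype. There were 5 libraries at P5 (postnatal day 5) and 3 each at P7, P10, P15, P21 and P28. The tag is switched on wherever Rbp4-Cre was active, so a library holds RNA of every Cre-positive cell of the hippocampus and whatever other RNA the beads retained. The labels name 3 batches: batch A holds 3 P5 libraries and the P10 and P15 libraries, batch B holds 2 P5 libraries and the P7 libraries, and batch C holds the P21 and P28 libraries. The labels do not say whether libraries of 1 age come from separate mice, so p-values measure the spread between these libraries, which may be technical.

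Eph receptors form the largest family of receptor tyrosine kinases. The ephrin-A ligands that bind the A class are tethered to the outer face of the cell membrane by a lipid anchor. Contact between a cell that carries the ligand and one that carries the receptor signals into both cells, forward through the receptor and in reverse through the ligand. In the hippocampus the family is known for axon guidance, for the placing of mossy fibre and perforant path inputs and for the shaping of dendritic spines.

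Each library held 15862204 to 24933541 counted reads. Levels are given as CPM, reads per total library size scaled with the TMM factors of edgeR, and 3 reads, the floor used here, corresponded to 0.120 to 0.189 CPM. Prox1, the transcription factor that defines granule cells, lay between 410 and 655 CPM in every library. Of 10 granule cell markers, 8 rose and 0 fell at P28 against P5, and their summed level was 2743 to 2807 CPM at P28 and 1566 to 1775 CPM at P5. Defining markers of other cells were also present: Gad1 of interneurons averaged 193 CPM at P28 and 87.3 at P5, Fibcd1 of CA1 pyramidal cells 96.2 at P28 and 59.6 at P5, and Mobp of oligodendrocytes 116 at P28 and 0.190 at P5. Markers of young or transient cells moved the other way, with Dcx at 16.5 CPM at P28 and 739 at P5, Reln at 14.3 and 113, and Nes at 1.88 and 30.6. Aqp4 of astrocytes averaged 17.7 CPM at P28 and 32.2 at P5, Cldn5 of endothelial cells 1.76 and 15.6, and C1qa of microglia 2.03 and 3.10. Several of these lists split at P28 against P5: 2 of 10 interneuron markers rose (Gad1 and Pvalb) and 4 fell (Slc32a1, Lhx6, Dlx1 and Dlx2), 4 of 10 astrocyte markers rose and 5 fell, and 1 of 8 microglial markers rose and 1 fell.

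The promoters of the 4 members that changed most between P5 and P28 are shown first, since the results below return to them: Epha7 and Efna1, which rose, and Epha8 and Epha5, which fell. Each is a 300-base RefSeq window (build GRCm38.p6) from 250 bases before to 50 after an annotated start, written 5′ to 3′ on the gene's own strand, with GC boxes (GGGCGG or CCGCCC) and the Egr site (GCGGGGGCG or CGCCCCCGC) in capitals. Epha7 lies at chr4:28812881-28813180 on the plus strand, Efna1 at chr3:89280902-89281201, Epha8 at chr4:136956767-136957066 and Epha5 at chr5:84417333-84417632, these 3 on the minus strand.
Epha7: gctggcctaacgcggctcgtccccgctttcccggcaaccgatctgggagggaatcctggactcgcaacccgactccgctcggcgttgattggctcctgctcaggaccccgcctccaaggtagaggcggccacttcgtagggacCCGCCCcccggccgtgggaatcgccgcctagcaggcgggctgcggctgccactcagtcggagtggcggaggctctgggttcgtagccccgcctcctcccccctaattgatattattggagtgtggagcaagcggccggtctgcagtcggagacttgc
Efna1: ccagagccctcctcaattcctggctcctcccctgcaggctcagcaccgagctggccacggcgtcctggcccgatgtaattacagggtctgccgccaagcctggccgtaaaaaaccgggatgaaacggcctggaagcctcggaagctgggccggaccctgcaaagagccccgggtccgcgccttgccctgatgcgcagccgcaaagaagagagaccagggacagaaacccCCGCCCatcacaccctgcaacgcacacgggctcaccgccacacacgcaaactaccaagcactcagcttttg
Epha8: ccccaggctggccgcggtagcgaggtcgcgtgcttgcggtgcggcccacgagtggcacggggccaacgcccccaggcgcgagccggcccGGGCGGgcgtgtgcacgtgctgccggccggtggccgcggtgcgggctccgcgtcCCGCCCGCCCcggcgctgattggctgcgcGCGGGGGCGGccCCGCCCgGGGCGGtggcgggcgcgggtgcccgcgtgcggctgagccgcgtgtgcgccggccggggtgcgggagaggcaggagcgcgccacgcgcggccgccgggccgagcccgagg
Epha5: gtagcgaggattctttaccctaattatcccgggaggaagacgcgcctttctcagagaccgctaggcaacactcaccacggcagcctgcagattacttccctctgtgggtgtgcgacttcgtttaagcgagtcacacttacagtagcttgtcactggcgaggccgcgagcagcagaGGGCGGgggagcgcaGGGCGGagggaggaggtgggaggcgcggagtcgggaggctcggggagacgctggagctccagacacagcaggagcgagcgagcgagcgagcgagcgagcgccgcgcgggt
The Epha8 window was 84.3% G or C with 56 CpG dinucleotides and 6 GC boxes, some overlapping, 1 of them inside the run that also holds the Egr site. The other windows shown were 63.7% (Efna1), 64.3% (Epha5) and 67.0% (Epha7) G or C, with 1, 2 and 1 GC boxes. All 10 members had an entry in the RefSeq promoter table, in 13 windows, and 9 of the 10 had a GC box in at least 1 window, the exception being Epha3. On both strands, 35.6% of all 32817 promoters of the same length held a GC box and 2.91% the Egr site, and the median promoter was 52.7% G or C with 7 CpG. No member window held a TATA box (TATAAA, in 13.6% of all promoters), and the E-box CAGATG (17.2% of all) stood only in Efna3 and Epha6. GC boxes were thus present in promoters of members that rose and of members that fell.

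Across the 6 ages, 7 of the 10 members differed with age, against 79.7% of all genes tested (edgeR quasi-likelihood test, Benjamini-Hochberg adjustment over all genes). Between P28 and P5, Epha7, Efna1 and Efna3 rose and Epha5, Epha8 and Efna2 fell, which is 6 of 10 against 71.6% of all genes (35.2% higher and 36.4% lower). Between P15 and P5, 8 of 10 passed, against 63.4% of all genes (31.6% higher and 31.8% lower). Epha3, Epha7, Efna1 and Efna3 rose and Epha5, Epha8, Efna2 and Efna5 fell, Efna5 only at the threshold (adjusted p = 0.0493). With Efna5 counted the calls split evenly by direction, and those of all genes did so nearly. The median log2 change of the members was -0.02, the value over all genes as well. With library totals in place of TMM factors the median of all genes moved to -0.14 in both of these comparisons, and the share of higher calls among all genes at P15 against P5 was 39.2% in place of 49.8%. In bulk RNA, fewer cells of a type and less RNA per cell cannot be told apart. P28 and P5 never share a batch, so age and batch C cannot be told apart there, whereas P15 and P5 share batch A. Nor do P21 and P15 share a batch, so the same limit holds for every change between those ages below. With the batch B term, changes at P10, P15, P21 and P28 against P5 were fitted against the batch A libraries of P5.

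**Figure D1:**
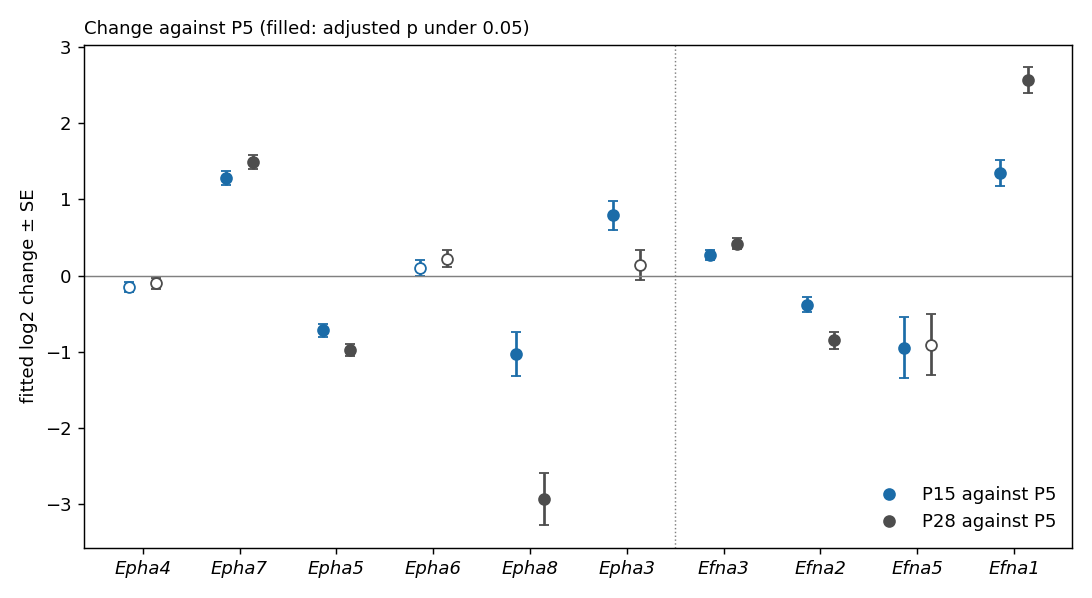
Fitted log2 change of each member at P15 against P5 and at P28 against P5 with its standard error; filled points passed an adjusted p of 0.05, and both comparisons share the P5 libraries. Epha7, Efna1 and Efna3 lie above 0 and Epha5, Epha8 and Efna2 below 0 at both ages, while Epha3 lies above 0 at P15 (0.79) and near it at P28 (0.14).

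Epha4, a receptor that binds ephrins of both classes and is known for spine retraction and mossy fibre guidance, was the most abundant member at every age on a per-length scale, at 63.5 ± 2.26 CPM per kb of exon at P28 (SD, n = 3) and 68.0 ± 2.52 at P5 (SD, n = 5). The gene lies on chromosome 1 from 77367185 to 77515088 (mm10, minus strand). It measured 555, 555 and 530 CPM at P5 in batch A, 525 and 574 at P5 in batch B and 552, 431 and 522 at P7. The P10 libraries held 522, 543 and 508, those of P15 511, 509 and 460, those of P21 535, 508 and 492 and those of P28 526, 491 and 517. The libraries overlapped between every pair of neighbouring levels, and the lowest single value was a P7 library. The change was -0.10 on the log2 scale at P28 against P5 (SE 0.07, adjusted p = 0.221) and -0.15 at P15 against P5 (SE 0.07, adjusted p = 0.0656). The P15 call depended on the setting: it passed in the libraries of batch A alone (-0.15, adjusted p = 0.0236), in which all P15 values were below all P5 values, and with library totals (-0.27, adjusted p = 0.00267), a change of -0.13 relative to the shift of all genes. It also passed without the first P7 library (adjusted p = 0.0491), the second P7 library (adjusted p = 0.0273) or the first P15 library (adjusted p = 0.0412).

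Epha7, a receptor known for dendrite and spine growth and for sorting of cortical axons, was higher than at P5 from P10 onward. Its locus is on chromosome 4 from 28813131 to 28967499 on the plus strand. It measured 124, 136 and 124 CPM at P5 in batch A, 134 and 142 at P5 in batch B and 186, 138 and 138 at P7. P10 libraries stood at 252, 292 and 237, P15 libraries at 317, 319 and 294, P21 libraries at 371, 373 and 347 and P28 libraries at 362, 355 and 358. The P10 libraries were all above the P7 libraries, the P15 libraries above P10 and the P21 libraries above P15, while P7 overlapped P5 and P28 overlapped P21. Epha7 was 2.81-fold higher at P28 than at P5 (log2 change 1.49, SE 0.09, adjusted p = 7.2e-12) and 2.03-fold higher at P10 than at P5 (1.02, SE 0.09, adjusted p = 5.6e-09). Inside batch A the P10 and P15 changes against P5 were 1.02 (adjusted p = 2.6e-09) and 1.28 (adjusted p = 1.1e-10). The single steps from P10 onward did not pass: 0.25 at P15 against P10 (adjusted p = 0.112) and 0.23 at P21 against P15 (adjusted p = 0.061). The second of these passed with DESeq2 (adjusted p = 0.0466) and in 3 of the 20 fits that each left out 1 library.

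**Figure D2:**
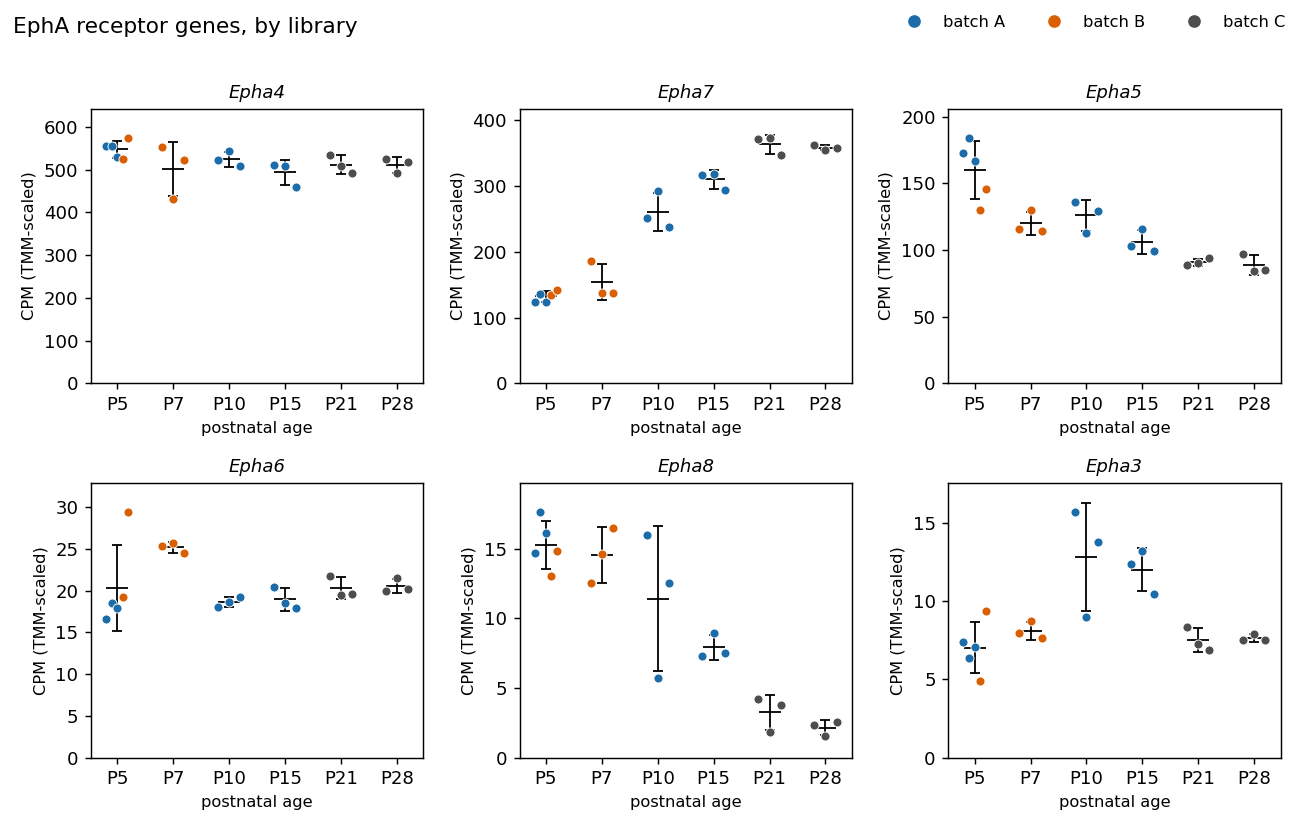
TMM-scaled CPM of the 6 EphA receptor genes in each of the 20 libraries (points, coloured by batch) at each postnatal age, with the mean and SD of the age; each panel has its own axis starting at 0. Epha7 climbs to 371, 373 and 347 CPM at P21, Epha8 and Epha5 decline, Epha3 is highest at P10 and P15, and the batch B points of Epha6 include the 4 highest values, up to 29.4 CPM.

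Epha5, a receptor for guidance of hippocampal and forebrain axons, fell. The gene is on chromosome 5 from 84054761 to 84417382 on the minus strand. It measured 173, 184 and 167 CPM at P5 in batch A, 130 and 146 at P5 in batch B and 116, 130 and 114 at P7. Later values were 136, 113 and 129 for P10, 103, 116 and 99.3 for P15, 89.0, 89.9 and 93.9 for P21 and 97.1, 84.1 and 84.7 for P28. All libraries of P21 and P28 were below all libraries of the 4 earlier ages. The log2 change was -0.98 at P28 against P5 (SE 0.08, adjusted p = 3.5e-11), a fold of 0.507. Batch bore on the P5 value, since the P5 libraries of batch B were lower than those of batch A by a log2 change of -0.34 (SE 0.08, adjusted p = 0.0102). Between these P5 batches 2 of 10 members passed, Epha5 lower and Epha6 higher in batch B, against 10.1% of all genes (6.65% higher and 3.42% lower). Within batch A, where that difference cannot enter, the change was -0.48 at P10 against P5 (adjusted p = 2.7e-05) and -0.72 at P15 against P5 (adjusted p = 2.1e-07). The later step, P21 against P15, was -0.22 (adjusted p = 0.0315) and no longer passed without the second P15 library (-0.16, adjusted p = 0.175), the first P21 library (-0.21, adjusted p = 0.0849) or the second P21 library (-0.22, adjusted p = 0.0791).

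Epha8, a receptor known in mouse for guidance of collicular axons, showed the steepest fall among the members. The gene is on chromosome 4 from 136929419 to 136956816 on the minus strand. It measured 14.7, 17.6 and 16.1 CPM at P5 in batch A, 13.0 and 14.8 at P5 in batch B and 12.5, 14.6 and 16.5 at P7. The P10 libraries held 16.0, 5.72 and 12.5, those of P15 7.28, 8.93 and 7.53, those of P21 4.17, 1.82 and 3.75 and those of P28 2.30, 1.52 and 2.55. All P15 libraries were below all P5 libraries and all P21 libraries below all P15 libraries, and the P28 values rested on 29 to 44 reads a library. The log2 change was -2.93 at P28 against P5 (SE 0.34, adjusted p = 9.5e-07), a fold of 0.131. At P21 against P15 it was -1.29 (SE 0.33, adjusted p = 0.00786). The P10 libraries spread widely, and P10 against P5 did not pass (-0.50, SE 0.28, adjusted p = 0.136) unless the first P10 library was left out (-0.83, adjusted p = 0.0189).

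Epha3, a guidance receptor with high affinity for ephrin-A5, rose and then came back. Its locus runs along chromosome 16 from 63543534 to 63864175 on the minus strand. It measured 7.42, 6.36 and 7.05 CPM at P5 in batch A, 4.92 and 9.38 at P5 in batch B and 7.96, 8.74 and 7.65 at P7. P10 libraries stood at 15.7, 8.97 and 13.8, P15 libraries at 12.4, 13.2 and 10.5, P21 libraries at 8.35, 7.27 and 6.87 and P28 libraries at 7.51, 7.92 and 7.54. All P15 libraries were above all P5, P7, P21 and P28 libraries, and P28 lay inside the range of P5. The log2 change was 0.79 at P15 against P5 (SE 0.19, adjusted p = 9.3e-04), -0.69 at P21 against P15 (SE 0.19, adjusted p = 0.00828) and 0.14 at P28 against P5 (SE 0.20, adjusted p = 0.531). A fit of batch A alone gave the same rise (0.79, adjusted p = 0.00103), but it is the same contrast and not a separate check. The fall at P21 crosses from batch A to batch C.

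Epha6, the remaining receptor, lies on chromosome 16 from 59653483 to 60605531 on the minus strand and shares 107 bases of exon with the antisense gene Gm9017, so its counts are uncertain without the strand setting of the counting. It measured 16.6, 18.5 and 17.9 CPM at P5 in batch A, 19.3 and 29.4 at P5 in batch B and 25.4, 25.7 and 24.5 at P7. Later values were 18.0, 18.6 and 19.2 for P10, 20.5, 18.5 and 17.9 for P15, 21.8, 19.5 and 19.6 for P21 and 20, 21.5 and 20.2 for P28. Its high values were those of batch B: at P5 the libraries of batch B exceeded those of batch A by 0.46 (SE 0.12, adjusted p = 0.0121). No comparison of ages passed, the nearest being P28 against P5 (0.22, SE 0.11, adjusted p = 0.0703). That comparison passed without either P5 library of batch B (adjusted p = 0.0179 without the first and 0.0187 without the one at 29.4 CPM). Its change stayed at 0.22 both times, because these libraries do not enter it and bear on the estimate of spread. Without the library at 29.4 CPM, P7 against P5 passed as well (0.38, adjusted p = 0.0414). At P10 against P7 the log2 change was 0.03 with the batch term (adjusted p = 0.914) and -0.44 without it (adjusted p = 0.0121).

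Among the 6 receptor members the balance between Epha4 and Epha7 moved. Epha10, not a member, is left out of the sums below. It measured 4.27, 3.84 and 4.43 CPM per kb at P28 and 0.679 to 0.891 at P5. Summed over the 6 receptors the P5 libraries averaged 98.8 ± 4.28 CPM per kb (SD, n = 5), P7 libraries 93.8 ± 9.22, P10 libraries 106 ± 3.48, P15 libraries 106 ± 5.73, P21 libraries 111 ± 4.04 and P28 libraries 110 ± 2.86 (SD, n = 3 each). Epha7 made up 13.5% of that sum in P5 libraries, 16.5% in P7, 24.7% in P10, 29.7% in P15, 33.1% in P21 and 32.9% in P28 libraries. Epha4 made up 68.9%, 66.3%, 61.2%, 58.0%, 57.2% and 57.6% of it at those ages. The ratio of Epha7 to Epha4 per kb was 0.561 to 0.589 in the P28 libraries and 0.182 to 0.208 in the P5 libraries, which do not overlap; these shares were not tested. They depend on the exon lengths used: with the longest transcript in place of all exons, Epha4 was still first at P5, P15 and P28, but Epha5 ranked above Epha7 at P5, where their libraries overlapped.

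**Figure D3:**
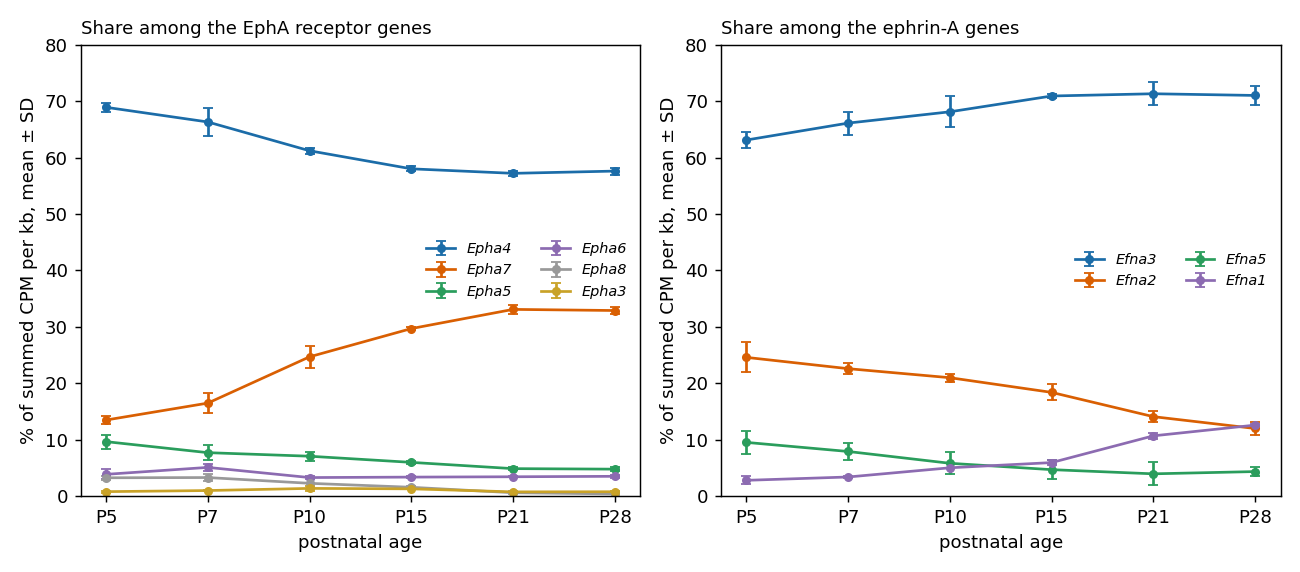
Share of each gene in the summed CPM per kb of the 6 EphA receptor genes (left) and the 4 ephrin-A genes (right) at each age, mean and SD over libraries. Epha7 goes up to 32.9% and Epha4 down to 57.6% of the receptor sum at P28, and Efna1 and Efna2 meet at 12.6% and 12.0% of the ligand sum at P28.

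Efna3, a ligand known from the EphA4 exchange between astrocytes and spines, was the most abundant of the 4 ligand genes, at 60.9% to 72.8% of their summed CPM per kb in every library. It lies on chromosome 3 from 89313899 to 89322965 on the minus strand and shares 344 bases of exon with the antisense gene Gm15998, so its counts too are uncertain without the strand setting. It measured 53.6, 59.9 and 62.0 CPM at P5 in batch A, 60.7 and 54.2 at P5 in batch B and 52.7, 59.7 and 55.8 at P7. The P10 libraries held 79.0, 68.9 and 67.7, those of P15 67.7, 67.4 and 76.0, those of P21 70.5, 73.4 and 70.7 and those of P28 80.5, 74.6 and 79.2. All libraries from P10 onward were above all libraries of P5 and P7. The step was small, with a log2 change of 0.30 at P10 against P5 (SE 0.07, adjusted p = 9.9e-04), 0.33 at P10 against P7 (SE 0.11, adjusted p = 0.0152) and 0.42 at P28 against P5 (SE 0.07, adjusted p = 1.4e-05). The P10 call against P7 was lost without the first P5 library of batch A (0.26, adjusted p = 0.053) or the first of batch B (0.25, adjusted p = 0.123). With library totals the P10 and P15 changes against P5 no longer passed (0.17, adjusted p = 0.0555, and 0.15, adjusted p = 0.0817). Relative to the shift of all genes in that setting the P15 change was 0.29.

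Efna1, a ligand known from blood vessels and from inflammatory induction, had the largest rise of the members. It lies on chromosome 3 from 89271733 to 89281142 on the minus strand. It measured 2.24, 1.62 and 1.40 CPM at P5 in batch A, 2.39 and 2.02 at P5 in batch B and 1.94, 2.26 and 2.32 at P7. P10 libraries stood at 4.34, 3.67 and 3.97, P15 libraries at 4.51, 4.39 and 4.42, P21 libraries at 8.35, 8.07 and 7.86 and P28 libraries at 10.6, 10.3 and 10.3. From P10 onward every age lay wholly above the one before it, on 177 to 197 reads a library at P28 and 24 to 50 at P5. Efna1 was 5.91-fold higher at P28 than at P5 (log2 change 2.56, SE 0.17, adjusted p = 8.4e-13). With the batch term it was 2.30-fold higher at P10 than at P7 (1.20, SE 0.26, adjusted p = 8.6e-04). That step crosses from batch B to batch A and is joined only through P5, where Efna1 differed between the batches by 0.33 (SE 0.21, adjusted p = 0.351). Over 29 alternative settings the change ran from 0.87 to 1.41 and passed in all 29. Efna1 was 1.82-fold higher at P21 than at P15 (0.87, SE 0.15, adjusted p = 1.0e-04). The last step, P28 against P21, did not pass (0.36, SE 0.14, adjusted p = 0.288). Endothelial and mural markers went the other way, 9 of 10 falling and 1 rising at P28 against P5, with summed levels of 21.8 to 28.8 CPM at P28 and 84.0 to 155 CPM at P5. Of 10 oligodendrocyte markers 7 rose and 3 fell at P28 against P5, and their sum was 174 to 236 CPM at P5, 1060 to 1839 at P15 and 878 to 1042 at P28. The part of either cell type in the values of Efna1 was not tested.

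Efna2, a ligand known for setting visual maps together with ephrin-A5, fell. The gene is found on chromosome 10 from 80179482 to 80190010 on the plus strand. It measured 22.2, 20.3 and 20 CPM at P5 in batch A, 18.0 and 18.2 at P5 in batch B and 15.6, 19.2 and 15.7 at P7. Later values were 20.8, 17.5 and 19.9 for P10, 14.1, 15.9 and 18.1 for P15, 12.5, 11.4 and 13.2 for P21 and 10.9, 12.5 and 11.4 for P28. The P21 and P28 libraries were all below those of every earlier age. The log2 change was -0.38 at P15 against P5 (SE 0.10, adjusted p = 0.00306), -0.38 at P21 against P15 (SE 0.11, adjusted p = 0.0111) and -0.85 at P28 against P5 (SE 0.11, adjusted p = 1.9e-07). The P21 call was lost without the second P21 library (-0.32, adjusted p = 0.0584) or the third P15 library (-0.29, adjusted p = 0.0734). At P28 the level of Efna1 per kb, 5.69 ± 0.110, overlapped that of Efna2, 5.44 ± 0.386 (SD, n = 3 each), whereas at P5 Efna1 was at 1.06 ± 0.228 and Efna2 at 9.27 ± 0.798 (SD, n = 5 each).

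**Figure D4:**
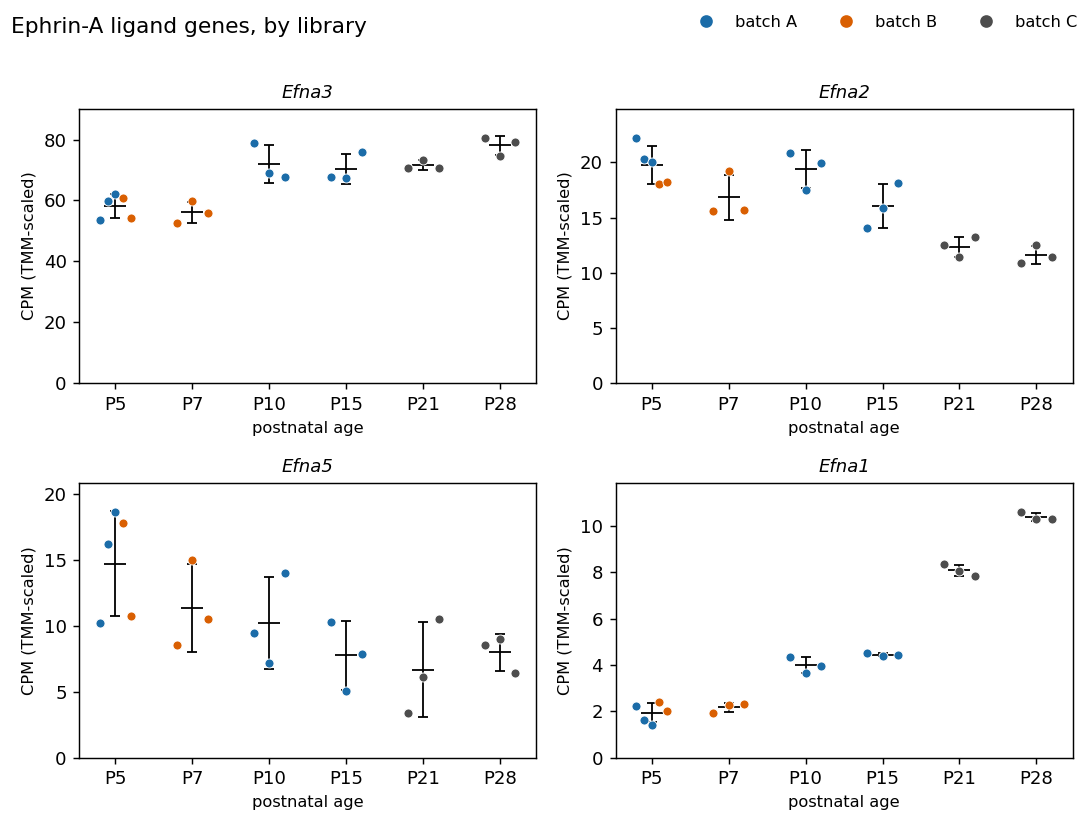
TMM-scaled CPM of the 4 ephrin-A ligand genes in each library (points, coloured by batch) at each postnatal age, with the mean and SD of the age; each panel has its own axis starting at 0. Efna1 reaches 10.6, 10.3 and 10.3 CPM at P28, Efna2 declines, Efna3 steps up at P10 and Efna5 spreads widely within every age.

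Efna5, a ligand with high affinity for several EphA receptors, had the highest coefficient of variation of the members at 4 of 6 ages and Epha8 at the other 2, P10 and P28, with 17.6% to 53.6% for Efna5 over the ages. It is encoded on chromosome 17 from 62604184 to 62881317 on the minus strand. It measured 10.2, 16.2 and 18.6 CPM at P5 in batch A, 17.8 and 10.7 at P5 in batch B and 8.51, 15 and 10.5 at P7. The P10 libraries held 9.47, 7.17 and 14.0, those of P15 10.3, 5.06 and 7.89, those of P21 3.40, 6.09 and 10.5 and those of P28 8.50, 9.02 and 6.38. Every age overlapped the next in the order of their means, though all P28 libraries were below all P5 libraries. The change at P15 against P5 lay at the threshold (-0.95, SE 0.40, adjusted p = 0.0493), and it was past it in 16 of 30 alternative settings, single libraries left out included, with adjusted p up to 0.166 when the second P15 library was left out. The difference over all ages did not pass (adjusted p = 0.117), nor did P28 against P5 (-0.91, SE 0.40, adjusted p = 0.0539), which was past the threshold in 8 of 29 alternative settings.

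At P10 both the members and markers of other cell types varied between libraries. The 10 CA pyramidal markers summed to 1030, 425 and 884 CPM in the P10 libraries. In the same order the members that varied most at P10 were as follows: Epha8 measured 16.0, 5.72 and 12.5 CPM, Epha3 15.7, 8.97 and 13.8, and Efna5 9.47, 7.17 and 14.0. The second P10 library was the lowest for the marker sum and for 6 of 10 members, these 3 and Epha5, Efna1 and Efna2, and it was the highest for Epha4 and Epha7. The first P10 library was lowest for 1 member and the third for 3. No share over all genes is set beside these counts. Other marker sums also spread over the P10 libraries. Those of oligodendrocytes ran from 462 to 809 CPM, of immature neurons from 702 to 1123 and of astrocytes from 907 to 1285. The CA pyramidal marker sum ran from 420 to 607 CPM at P28 and from 460 to 649 at P5, and of these 10 markers 5 rose and 5 fell at P28 against P5. Their part in the members' values, at P10 or across the ages, was not tested. Immature neuron markers fell in 10 of 10 cases at P28 against P5, their sum being 432 to 459 CPM at P28 and 2725 to 3264 CPM at P5. Stem and progenitor markers fell in 9 of 9 and Cajal-Retzius markers in 8 of 8. Epha8, Epha5 and Efna2 fell in the same comparison, but the timing differed. At P10 against P5, 9 of 10 immature neuron markers and 9 of 9 stem and progenitor markers were already lower. Epha5 was lower there too (-0.47, adjusted p = 8.8e-06), whereas Epha8 (-0.50, adjusted p = 0.136) and Efna2 (-0.10, adjusted p = 0.405) did not pass. The part of these cell types in the falls of the 3 members was not tested.

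**Figure D5:**
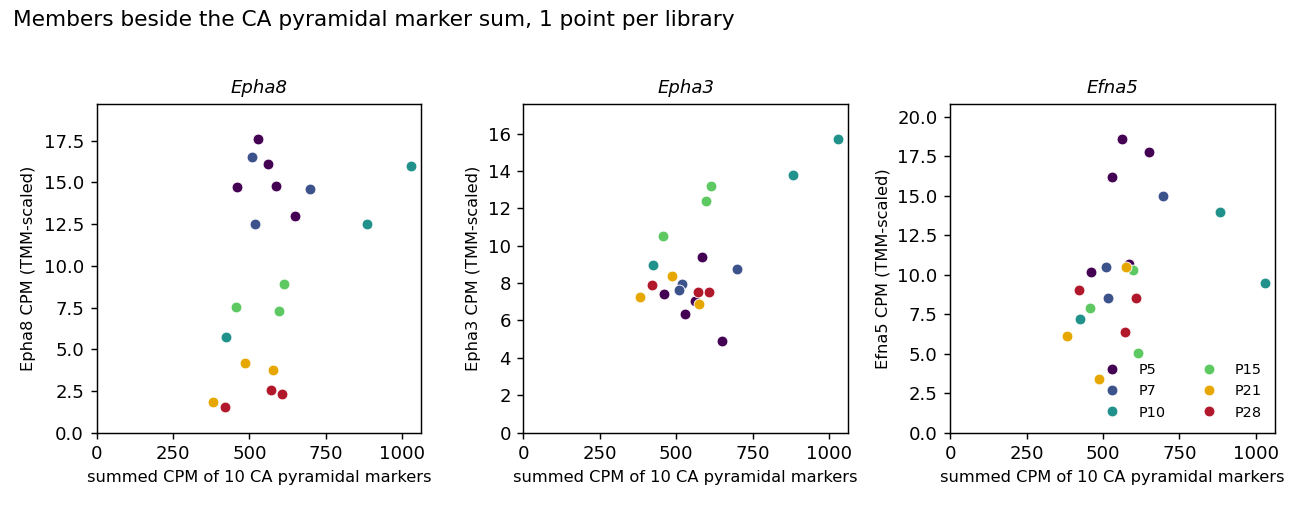
Epha8, Epha3 and Efna5 in TMM-scaled CPM against the summed CPM of 10 CA pyramidal markers, 1 point per library, coloured by age. At P10 the library with the lowest marker sum (425) is lowest for all 3 genes, and the P21 and P28 libraries, low for Epha8, have marker sums of 381 to 607 CPM, against 460 to 649 at P5.

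Between neighbouring ages, 3 steps held no call among the members by the edgeR test. At P7 against P5, 0 of 10 passed, against 11.0% of all genes (6.15% higher and 4.89% lower), with 1 (Epha5) at an unadjusted p under 0.05 and 0 by DESeq2 or limma-voom. The count rested on the batch term: it was 1 without it and 4 without the P5 libraries of batch B, and with library totals it was 2, where 18.0% of all calls were higher in place of 55.7%. At P15 against P10, 0 of 10 passed, against 4.36% of all genes (1.84% higher and 2.52% lower), with 3 (Epha5, Epha7 and Efna2) at an unadjusted p under 0.05, 1 by DESeq2 and 0 by limma-voom. Without the first P7 library Epha7 passed (0.26, adjusted p = 0.0211), and without the second P10 library 3 members passed, namely Epha5 (-0.32, adjusted p = 0.00977), Epha7 (0.34, adjusted p = 0.0184) and Epha8 (-0.85, adjusted p = 0.0101). At P28 against P21, 0 of 10 passed, against 0.254% of all genes (0.0650% higher and 0.189% lower), with 1 (Efna1) at an unadjusted p under 0.05 and 0 by DESeq2 or limma-voom. The other 2 steps held calls: 3 of 10 at P10 against P7 (Epha7, Efna1 and Efna3 higher), against 42.8% of all genes (22.5% higher and 20.3% lower), and 5 of 10 at P21 against P15, against 28.8% (14.0% higher and 14.8% lower). In the second, Efna1 was higher and Epha3, Epha5, Epha8 and Efna2 lower, and 3 of 10 passed without the second P21 library. The step from P15 to P21 crosses from batch A to batch C, so age and batch cannot be told apart in it. P10 against P7 crosses from batch B to batch A and is joined only through the P5 libraries. Leaving out single libraries gave 2 to 4 members there. At P10 against P5, 5 of 10 passed, against 61.4% of all genes (30.8% higher and 30.6% lower), and the share of higher calls among all genes was 37.6% with library totals in place of 50.1%.

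Across the 20 libraries, which share ages and batches, the levels of the members were compared as log2 CPM. Pearson's r was 0.92 between Epha7 and Efna1, 0.89 between Epha8 and Efna2 and -0.92 between Epha8 and Efna1. Epha3, Epha4 and Epha6 stood apart, with r of -0.42 to 0.38 to the other members. Among 10575 genes searched, those most like Epha7 were Limd2, Olfm1 and Kcnab2 (r = 0.99 each) and those most like Efna1 were Tomm34 (0.99), Flywch1 and Pfkl (0.98 each). Those most like Epha8 were Spred3 and Ptprd (0.97 each) and Gpr139 (0.96), and those most like Epha5 were Dazap1 and Lhx2 (0.96 each) and Mdga2 (0.95). Vkorc1, Cldnd1 and Zdhhc2 were most like Efna2 (0.94 each), and Cd81 (0.94), Uqcc3 and Tle5 (0.92 each) most like Efna3. Npr3 (0.94), Tox2 (0.91) and Unc5d (0.90) were most like Efna5, and Syt3, Gpr162 and Ndfip2 (0.85 each) most like Epha3. The nearest genes to Epha6 were Dync2h1 (0.89), Nrd1 (0.88) and Nsd1 (0.87), and those to Epha4 were Tab3 (0.75), Cenpv and Clstn2 (0.72 each).

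Of the 4 other EphA and ephrin-A genes, Epha10, a receptor whose kinase domain lacks activity, rose. It measured 30.8, 27.7 and 31.9 CPM at P28, against 5.41, 5.44 and 4.89 CPM at P5 in batch A and 5.92 and 6.42 in batch B, 5.73-fold higher at P28 (log2 change 2.52, SE 0.12, adjusted p = 1.7e-15). Efna4, a ligand also expressed outside the nervous system, fell to 0.439, 0.472 and 1.04 CPM at P28, against 3.91, 2.43 and 2.68 CPM at P5 in batch A and 2.34 and 1.97 in batch B (-2.21, SE 0.37, adjusted p = 1.1e-05). Epha2, a receptor of epithelia, was at 1 to 4 reads a library at P28 and 9 to 30 at P5 (-2.74, SE 0.56, adjusted p = 1.3e-04), and Epha1 at 0 to 5 reads was not tested. Epha10 and Efna4 also share 79 and 168 bases of exon with antisense genes. Efna1, Efna3 and Efna4 lie within 66.3 kb of chromosome 3, from 89271733 to 89338028, all on the minus strand, and of these neighbours Efna1 and Efna3 rose and Efna4 fell at P28 against P5.

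Among 32 genes for proteins that act with EphA receptors inside the cell, 17 rose and 10 fell at P15 against P5, with a median log2 change of 0.23 against -0.02 over all genes, of which 63.4% were called (31.6% higher and 31.8% lower). Chn1, a Rac-inactivating chimaerin required downstream of EphA4, averaged 1944 ± 40.3 CPM at P15 (SD, n = 3) and 366 ± 104 at P5 (SD, n = 5), with a fitted log2 change of 2.74 (SE 0.10, adjusted p = 4.0e-15). Here and below, P5 means cover both batches, whereas the changes were fitted against the batch A libraries of P5. Kalrn, a Rac activator of spines, rose by 1.77 on the log2 scale (SE 0.09), Rock2, a kinase that acts after RhoA, by 0.77 (SE 0.06) and the tyrosine kinase gene Src by 0.66 (SE 0.05). Vav2, recruited for the uptake of ephrin and receptor, averaged 12.4 ± 1.82 CPM at P15 (SD, n = 3) and 88.7 ± 8.67 at P5 (SD, n = 5), a log2 change of -2.93 (SE 0.12, adjusted p = 3.6e-15). Ptpro, a phosphatase that removes phosphate from Eph receptors, fell by 0.91 on the log2 scale (SE 0.08), the adaptor gene Anks1 by 1.22 (SE 0.12) and Limk1, a kinase of cofilin, by 0.72 (SE 0.11). At P28 against P5 the counts were again 17 higher and 10 lower, with a median of 0.21, where 71.6% of all genes were called.

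Of 7 genes for ephrin-A coreceptors and for proteases that cut ephrins or Eph receptors, 0 rose and 4 fell at P15 against P5, where 31.6% of all genes rose and 31.8% fell, with a median log2 change of -0.47. Adam10, the metalloprotease that cuts ephrin-A from the membrane, fell to 73.5 ± 4.70 CPM at P15 (SD, n = 3), against 94.5 ± 10.1 at P5 (SD, n = 5), a log2 change of -0.47 (SE 0.06, adjusted p = 2.9e-07). Ret, a coreceptor for reverse signalling in motor axons, fell by 1.85 on the log2 scale (SE 0.30), and the matrix metalloprotease genes Mmp2 and Mmp9 by 2.20 (SE 0.35) and 0.93 (SE 0.28). The endothelial and mural markers fell beside them, 9 of 10 at P15 against P5, and their part in these falls was not tested. The coreceptor genes Ntrk2 and Ngfr did not pass at P15 against P5. At P10 against P7, Ntrk2 was higher. At P28 against P5, 1 of the 7 genes rose and 5 fell, Ntrk2 among those that fell. Of all genes 35.2% rose and 36.4% fell there.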

How the data were processed

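The deposited table held raw counts per gene symbol for each library, with no normalization. STAR 2.7.5b, SAMtools 1.10 and featureCounts were used with mm10, per the submitters' processing notes, and per the labels' protocols the libraries were stranded and poly-A selected. The annotation, the strand setting and the handling of multi-mapping reads were not given in the sources used here. Members and gene lists were chosen with earlier results of these data known. Genes were filtered with filterByExpr, scaled with TMM and fitted with edgeR 4.0.16 (robust quasi-likelihood, R 4.3.3) on all 20 libraries, with age and a term for batch B that the P5 libraries make estimable (13 residual degrees of freedom), and p-values were adjusted over 15373 genes by Benjamini-Hochberg at a threshold of 0.05. The procedure was tested on simulated data. Per-length levels divide CPM by the union of exons in GENCODE vM21, in which 31424 symbols (97.5%) were found. All 10 members are named, with the 4 higher and 4 lower signalling partners of smallest p at P15 against P5, the coreceptor genes that passed there, the 4 other family genes, the defining markers, and for each member the 3 genes of highest Pearson r of log2 CPM (plus 0.5) among genes of at least 5 CPM on average. Alternatives were DESeq2 size factors, library totals, no filter, a stricter filter (1 CPM in 3 libraries), DESeq2 1.42.0, limma-voom (limma 3.58.1), no batch term, a replicate block, single batches, leaving out the batch B libraries of P5, and leaving out each library. Fits of batch B alone and batch C alone were added after the data had been seen. Libraries of the same age all differed beyond counting noise (chi-square over degrees of freedom 3.70 to 40.7). Floors cover counting error only. A gene of the coreceptor and protease list is counted but not reported here by name.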

Additional observations from a re-analysis of the deposited data

Results flagged for a closer look

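Among the members at P5, the age with enough libraries for a check of single values, Epha6 had 1 library apart from the others: replicate 3 of the second P5 series, in batch B, measured 29.4 CPM, and the other 4 measured 16.6 to 19.3 CPM. A check of this kind marks about 1 in 20 groups by chance, and 10 members were checked. Without this library Epha6 changed by 0.38 at P7 against P5 (adjusted p = 0.0414), against 0.05 with it (adjusted p = 0.847).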

How the results depend on the processing

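The counts of all genes called and of members called moved by over 1.5 times under some settings. At P7 against P5 (1698 genes, 0 members) they were 3035 and 2 with library totals, 3586 and 1 without the batch term, 4573 and 4 without the P5 libraries of batch B, and 621 genes in batch B alone. At P10 against P7 (3 members) there were 5 members without the batch term and 5 without the P5 libraries of batch B. At P15 against P10 (670 genes, 0 members) there were 1007 genes and 1 member with DESeq2 and 405 genes without the batch term. At P28 against P21 (39 genes, 0 members) there were 64 genes without a filter, 165 with DESeq2, 19 with limma-voom, 11 without the batch term, 19 with the replicate block and 277 in batch C alone, and with library totals 51.5% of the calls were higher in place of 25.6%. The replicate numbers did not pair the libraries (same-number correlations of -0.32 to 0.29, with 4 of 20 libraries closest to their own number); under the replicate block Efna5 at P15 against P5 gave -0.93 (adjusted p = 0.0713), which left 7 members called in place of 8. Leaving out each library gave 518 to 1848 genes and 0 to 1 members at P7 against P5, 8690 to 9586 and 5 to 6 at P10 against P5, 4896 to 6745 and 2 to 4 at P10 against P7, 108 to 1473 and 0 to 3 at P15 against P10, 9017 to 9895 and 7 to 9 at P15 against P5, 3400 to 4656 and 3 to 6 at P21 against P15, 9 to 55 and 0 to 0 at P28 against P21, 10343 to 11173 and 6 to 7 at P28 against P5, and 11615 to 12344 and 7 to 8 over all ages. The low counts were 518 and 1020 genes without replicate 1 or 3 of the second P5 series, 108 without replicate 3 of P10 and 9 without replicate 2 of P28, and the high one was 1473 without replicate 2 of P10. Among member values 38 turned sign, all of changes that had not passed, and 2 of them then passed: Epha6 at P10 against P7, at -0.44 without the batch term and -0.44 without the P5 libraries of batch B. With 1 library left out, 1553 member values stayed on their side of the threshold, 23 of them with the other sign, 29 newly passed it and 18 no longer did. Under the other settings 739 stayed on their side, 13 of them with the other sign, 23 newly passed with the same sign and 6 no longer passed. With the longest transcript as length, 4 of 10 members kept their rank at P10 and 7 at P28. The causes of these shifts were not tested. Depth limits Efna1 at P5 and Epha8 at P28, which rested on 24 to 50 and 29 to 44 reads a library.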
